A study of Mus musculus with 8 samples.

Results

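The genes examined here encode Polycomb group proteins, chromatin proteins that keep genes silent. The exception is Kdm6b, which encodes an enzyme that removes a histone mark these proteins place. All are called Polycomb genes here. They are 10 of the 31010 genes in the deposited table, chosen by name: Ezh1, Ezh2, Eed, Suz12, Rnf2, Bmi1, Pcgf6, Scml2, Cbx2 and Kdm6b. All 10 were found once in the table, and all 10 passed the filter of a mean of at least 1 FPKM (fragments per kilobase of exon, scaled to the size of the library), which left 12000 genes for testing. Their levels were measured by RNA-seq in 8 germline stem (GS) cell lines, which are long-term cultures of mouse spermatogonial stem cells grown with GDNF and FGF2. Of these lines, 4 were from control-F1 mice born after natural mating and 4 were from ICSI-F1 mice, whose mothers' oocytes were fertilised by intracytoplasmic sperm injection. The question was whether the germline of the ICSI offspring differs in gene expression. The lines are labelled wild type and B6 in both groups, and the mouse age is given only as mature. They were started from CD9+ spermatogonia enriched by magnetic sorting, and were plated on gelatin before collection to remove feeder fibroblasts. The study's supplement uses such numbers for individual F1 mice, but the labels name neither mouse nor litter, so n counts the lines and p-values measure the spread between these lines, which may be technical.

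Polycomb proteins work as 2 main complexes. Polycomb repressive complex 2 (PRC2) methylates lysine 27 of histone H3 through EZH1 or EZH2, with EED and SUZ12 as obligatory partners. PRC1 places ubiquitin on histone H2A through RING proteins, each paired with a PCGF protein, and CBX proteins bring canonical PRC1 to the mark that PRC2 leaves. In male germ cells these complexes are known for silencing somatic and developmental genes in spermatogonia, and SCML2 is a germline-enriched partner of PRC1.

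The reads recovered from the FPKM steps numbered 24684147 to 44251427 per line. The sample titles have 2 styles, called label forms here. One style (form 1) belongs to the controls 29 and 37 together with 11 and 17 of the ICSI set. The other (form 2) belongs to the controls 44 and 45 together with 20 and 21 of the ICSI set. The labels list different versions of the processing tools for the 2 forms (STAR 2.7.9a for form 1 and 2.6.0c for form 2, for example), and form 2 was sequenced more deeply (at least 32339703 reads per line, against at most 26637893 in form 1). All 15 spermatogonial markers had a mean of at least 1 FPKM. Their summed level was 822 to 953 FPKM in form 1 and 1135 to 1359 FPKM in form 2, with 14 of 15 higher in form 2. The summed level of 20 fibroblast markers was 251 to 1068 FPKM in control lines and 317 to 629 FPKM in ICSI lines, with the highest sums in control line 29 (1068 FPKM) and control line 44 (918 FPKM) and a lower mean in ICSI lines for 20 of 20 markers. Markers of Sertoli and Leydig cells summed to 7.77 to 12.6 FPKM, with Cyp17a1 listed at 0, and those of differentiating and meiotic germ cells to 309 to 402 FPKM, with Prm1 listed at 0. The mean in ICSI lines was lower for 10 of 15 spermatogonial, 5 of 13 Sertoli and Leydig and 2 of 13 differentiating and meiotic markers. Among all 12000 genes tested, 6684 were lower in ICSI lines. In cultures of this kind, fewer cells of a type and less RNA per cell cannot be told apart.

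The core of PRC2 was examined first. Per-line values are given for control lines 29, 37, 44 and 45 and then for ICSI lines 11, 17, 20 and 21. The promoters of the 4 core genes are shown because the 2 catalytic genes lay at different levels, and because Eed and Suz12 followed each other over the lines (described further on). Each sequence is from RefSeq on GRCm38.p6, written 5′ to 3′ on the gene's own strand, with 250 bases before and 50 bases after the RefSeq start of the gene. This start is that of the GENCODE gene for Ezh1 and Suz12, and it lies 7 bases inside the GENCODE gene for Eed and 311 bases inside it for Ezh2, whose whole window is within the gene. Capitals mark 2 motifs that were searched on both strands, CCAAT (the CCAAT box, ATTGG on the other strand) and TTCCCGC (an E2F motif, GCGGGAA on the other strand).
Ezh1, chr11:101226414-101226713, minus strand: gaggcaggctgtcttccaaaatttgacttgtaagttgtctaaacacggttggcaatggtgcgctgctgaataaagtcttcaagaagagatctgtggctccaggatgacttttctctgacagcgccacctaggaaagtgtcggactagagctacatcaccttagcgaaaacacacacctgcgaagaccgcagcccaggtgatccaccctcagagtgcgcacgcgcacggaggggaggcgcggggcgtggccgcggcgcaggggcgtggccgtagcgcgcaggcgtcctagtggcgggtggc
Ezh2, chr6:47594981-47595280, minus strand: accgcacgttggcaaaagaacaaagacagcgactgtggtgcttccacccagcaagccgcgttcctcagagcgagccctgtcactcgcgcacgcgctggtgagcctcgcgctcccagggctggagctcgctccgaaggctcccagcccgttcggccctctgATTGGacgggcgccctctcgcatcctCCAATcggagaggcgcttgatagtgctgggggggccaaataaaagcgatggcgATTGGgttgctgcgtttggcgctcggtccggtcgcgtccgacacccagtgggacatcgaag
Eed, chr7:89980927-89981226, minus strand: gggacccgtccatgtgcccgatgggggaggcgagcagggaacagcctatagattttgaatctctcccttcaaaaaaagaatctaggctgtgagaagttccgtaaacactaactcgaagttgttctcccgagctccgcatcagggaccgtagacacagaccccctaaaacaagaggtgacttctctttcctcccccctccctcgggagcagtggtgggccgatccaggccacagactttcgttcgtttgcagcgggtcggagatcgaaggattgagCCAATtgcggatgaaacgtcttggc
Suz12, chr11:79992856-79993155, plus strand: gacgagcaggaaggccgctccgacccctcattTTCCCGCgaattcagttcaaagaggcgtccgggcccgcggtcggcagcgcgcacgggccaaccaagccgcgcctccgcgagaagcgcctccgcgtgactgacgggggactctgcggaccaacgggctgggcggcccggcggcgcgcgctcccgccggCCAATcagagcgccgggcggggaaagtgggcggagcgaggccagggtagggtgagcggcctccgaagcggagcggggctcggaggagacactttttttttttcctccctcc
The Ezh1 window holds neither motif, the Ezh2 window holds 3 CCAAT matches, the Eed window holds CCAAT, and the Suz12 window holds both motifs. CCAAT was found in 37.4% and TTCCCGC in 4.60% of 32851 promoter windows of the same length. The E-box CACGTG, found in 7.15% of them, was present only in the window of Bmi1 among the 8 members with a promoter entry. These 8 windows held 13 (Scml2) to 41 (Suz12) CG pairs, against a median of 7 over all promoters. The Scml2 window lies at a RefSeq start 45557 bases inside the GENCODE gene. These are matches of letters and do not show binding.

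Ezh1 (ENSMUSG00000006920, mm10 chr11:101191115-101226463, minus strand) encodes the PRC2 methyltransferase that prevails in many non-dividing cells. Its level was 25.9, 28.0, 19.1 and 20.4 FPKM in the control lines and 25.0, 23.1, 21.8 and 19.4 FPKM in the ICSI lines. The 4 lines of label form 1 were the 4 highest. Within form 1 both control lines lay above both ICSI lines, and within form 2 the groups overlapped. Ezh2 (ENSMUSG00000029687, chr6:47530139-47595341, minus strand) encodes the methyltransferase that prevails in dividing cells. It was at 10.8, 8.70, 7.99 and 12.7 FPKM in the control lines and at 7.88, 9.07, 12.2 and 10.9 FPKM in the ICSI lines. Control line 45 and ICSI line 20 were the highest, ICSI line 11 and control line 44 the lowest, and the groups overlapped.

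Ezh1 was above Ezh2 in all 8 lines. The ratio of Ezh1 to Ezh2 FPKM was 2.40, 3.21, 2.39 and 1.61 in the control lines and 3.18, 2.55, 1.80 and 1.78 in the ICSI lines. The lines of label form 1 had the higher ratios, although the lowest of them (control line 29) and the highest of form 2 (control line 44) were nearly equal. The log2 ratio of Ezh2 to Ezh1 differed between ICSI and control lines by 0.049 (exact two-sided permutation test over 70 assignments, p = 0.914). Between the forms it differed by 0.59, with exact permutation p = 0.0286, the smallest that 4 against 4 lines can give, in a comparison added after the values were seen. The size of the ratio depends on the gene length used. FPKM divides by all exon bases of a gene, which for Ezh2 are 6678 against 2787 in its longest transcript and for Ezh1 are 7440 against 4207, and per kilobase of the longest transcript the ratio ranged from 1.19 to 2.37.

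Eed (ENSMUSG00000030619, chr7:89954654-89980983, minus strand) encodes the subunit that binds methylated H3 and stimulates the enzyme. Its values were 32.3, 36.5, 38.8 and 41.2 FPKM in the control lines and 35.5, 35.2, 40.1 and 42.1 FPKM in the ICSI lines. All lines of label form 2 lay above all lines of form 1, and the 2 groups overlapped. Suz12 (ENSMUSG00000017548, chr11:79993106-80034123, plus strand) encodes the scaffold of PRC2. It was at 26.6, 39.8, 39.0 and 46.3 FPKM in the control lines and at 38.7, 36.4, 39.6 and 46.4 FPKM in the ICSI lines. Control line 29 stood below the other 7 lines, which lay between 36.4 and 46.4 FPKM. On the opposite strand, transcripts of E230029C05Rik overlapped 6.82% of the Eed exon bases and transcripts of Gm26563 overlapped 3.60% of those of Suz12. Such overlap was also found for Kdm6b (4.11%, Kdm6bos), Rnf2 (3.83%, Trmt1l) and Ezh2 (2.61%, Gm26625). Because the strandedness of the libraries is uncertain, the reads of these transcripts could not be separated.

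**Figure D1:**
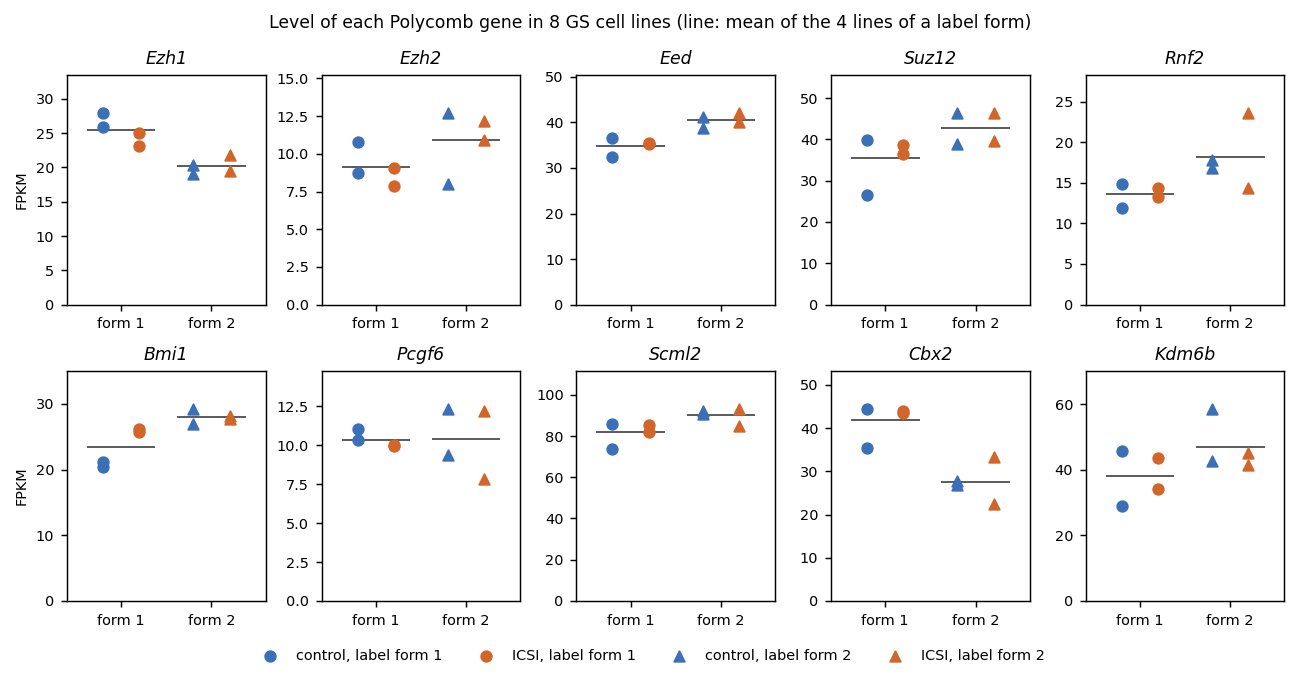
FPKM (linear axes from 0) of the 10 Polycomb genes in each of the 8 GS cell lines, with control lines in blue, ICSI lines in orange, label form 1 as circles, label form 2 as triangles and the mean of each form as a line. Over both forms together, blue and orange points overlap for every gene, whereas circles and triangles are separate for Ezh1, Eed, Bmi1 and Cbx2.

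Of the PRC1 genes, Rnf2 (ENSMUSG00000026484, chr1:151458004-151500955, minus strand) encodes RING1B, the main ubiquitin ligase of the complex. Its level was 14.9, 11.9, 16.9 and 17.8 FPKM in the control lines and 13.3, 14.3, 23.6 and 14.3 FPKM in the ICSI lines. ICSI line 20 was the highest of the 8 lines, and the other 3 ICSI lines lay within the range of the controls. The related ligase gene Ring1, which was not among the 10, had a mean of 2.42 FPKM. Bmi1 (ENSMUSG00000026739, chr2:18677018-18686629, plus strand), also known as Pcgf4, encodes a RING1B partner of canonical PRC1 that is needed by several adult stem cells. It was at 21.1, 20.4, 29.2 and 26.9 FPKM in the control lines and at 25.8, 26.2, 27.7 and 28.1 FPKM in the ICSI lines. The control lines 29 and 37 were the 2 lowest, and control line 44 was the highest, so that the ICSI lines lay inside the control range. Of the 76-base windows of Bmi1 transcripts, 9.97% also occurred in Gm5946, so its level is uncertain by the reads these genes share. Pcgf6 (ENSMUSG00000025050, chr19:47033617-47050906, minus strand) encodes the PCGF protein of PRC1.6, a variant complex that silences germline genes in other cells. It measured 11.0, 10.4, 9.35 and 12.3 FPKM in the control lines and 10.0, 9.96, 7.82 and 12.2 FPKM in the ICSI lines. Neither the groups nor the forms were separate, and ICSI line 20 was the lowest.

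Scml2 (ENSMUSG00000000037, chrX:161117193-161258213, plus strand), the germline partner of PRC1, had the highest level of the 10 genes. It was at 73.7, 86.0, 90.6 and 92.0 FPKM in the control lines and at 81.9, 85.3, 84.9 and 93.0 FPKM in the ICSI lines. Control line 29 was the lowest, and the other 7 lines lay between 81.9 and 93.0 FPKM. Its coefficient of variation over the 8 lines, 7.29%, was the smallest of the 10, and the SD of its log2(FPKM + 1) values was at percentile 8.14 of the 12000 genes tested. Cbx2 (ENSMUSG00000025577, chr11:119022962-119031270, plus strand) encodes a CBX protein of canonical PRC1 that compacts chromatin and is required for male sex determination. It was at 35.5, 44.4, 26.9 and 27.7 FPKM in the control lines and at 43.9, 43.4, 22.6 and 33.2 FPKM in the ICSI lines. All 4 lines of label form 1 lay above all 4 of form 2, with ICSI line 20 the lowest, and the groups overlapped within and across the forms. Cbx2 had the largest coefficient of variation of the 10 genes, 24.7%.

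Kdm6b (ENSMUSG00000018476, chr11:69398508-69413675, minus strand) encodes JMJD3, a demethylase that removes the PRC2 mark. Its level was 28.9, 45.6, 58.5 and 42.6 FPKM in the control lines and 43.6, 34.3, 41.4 and 45.2 FPKM in the ICSI lines. Control line 29 was the lowest and control line 44 the highest, so the control range enclosed that of the ICSI lines. Control line 29 was also the lowest line for Eed, Suz12 and Scml2. Control lines 29 and 44 had the highest fibroblast marker sums, whose part in these values was not tested. Without both lines, limma again called 0 of 10 genes between the groups, and 0 of all 12000 genes tested.

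The levels were then put in order within the lines. By mean FPKM over 8 lines (± SD) the order was Scml2 at 85.9 ± 6.27, Kdm6b at 42.5 ± 8.69, Suz12 at 39.1 ± 6.21, Eed at 37.7 ± 3.37, Cbx2 at 34.7 ± 8.57, Bmi1 at 25.7 ± 3.23, Ezh1 at 22.9 ± 3.23, Rnf2 at 15.9 ± 3.65, Pcgf6 at 10.4 ± 1.48 and Ezh2 at 10.0 ± 1.88. Neighbours in this order were compared by an exact two-sided sign-flip permutation test of the log2 ratio within a line, with Benjamini-Hochberg adjustment over the 9 pairs. The order came from the same 8 lines, so the pairs and their direction were set by the values tested. Scml2 was above Kdm6b in 8 of 8 lines (permutation adjusted p = 0.0352), Ezh1 above Rnf2 in 7 of 8 (permutation adjusted p = 0.0469) and Rnf2 above Pcgf6 in 8 of 8 (permutation adjusted p = 0.0352). No pair passed when any line other than ICSI line 20 was left out, where fewer sign flips are possible. The other 6 pairs did not differ beyond the spread between lines (permutation adjusted p 0.193 to 0.641), so that Kdm6b, Suz12, Eed, Cbx2, Bmi1 and Ezh1 formed a run of levels in which no neighbour was set apart, as did Pcgf6 and Ezh2. Among the genes tested, the means of the 10 lay from percentile 54.7 (Ezh2) to percentile 96.7 (Scml2).

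Part of the order rested on gene length. When the recovered reads were divided by the longest transcript, Scml2 remained first at 113 ± 8.27 and Eed moved to place 2 at 69.9 ± 6.25 on the FPKM scale (SD, n = 8). Scml2 above Eed and Eed above Kdm6b were then the 2 of 9 neighbour pairs that differed (permutation adjusted p = 0.0352 for each, 8 of 8 lines). Rnf2 was then above Pcgf6 in only 4 of 8 lines (permutation adjusted p = 0.598). Ezh2 moved from the last to place 8 at 24.0 ± 4.49, and Pcgf6 was last at 18.4 ± 2.63 on this scale (SD, n = 8). Which transcripts the lines use was not analysed here.

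**Figure D2:**
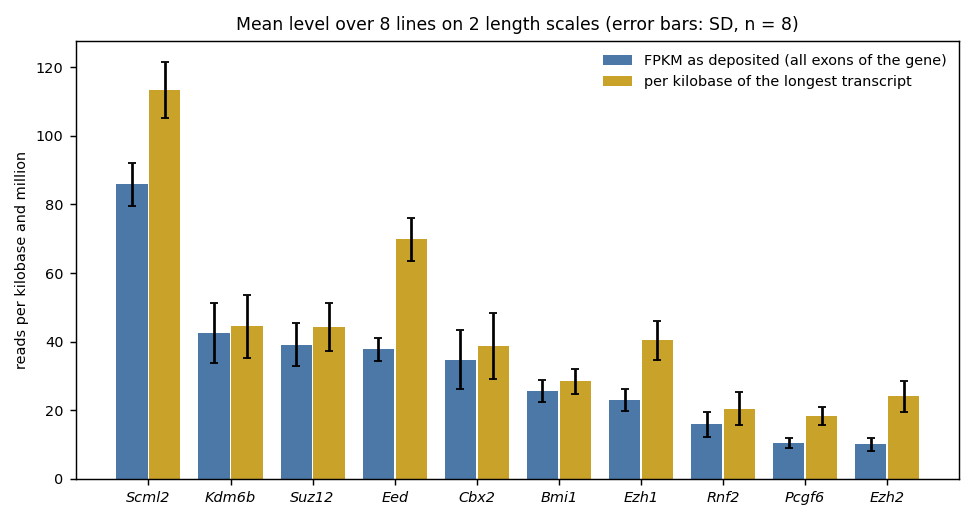
Mean level of the 10 genes over 8 lines (bars from 0, with SD as error bars), as FPKM over all exons (blue) and per kilobase of the longest transcript (yellow), both scaled to library size. Scml2 is highest on both scales (85.9 and 113), whereas Eed moves from place 4 to place 2 and Ezh2 from last to place 8.

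ICSI-F1 and control-F1 lines were compared next. None of the 10 Polycomb genes passed the test. In limma with Benjamini-Hochberg adjustment over all genes, 0 of 10 had an adjusted p under 0.05 and 0 of 10 had an unadjusted p under 0.05, where over all 12000 genes 0.0% were called and 0.458% had an unadjusted p under 0.05. The log2 differences in FPKM + 1 (ICSI minus control) ranged from -0.11 for Pcgf6 to 0.15 for Bmi1, 6 of them above 0 and 4 below. With 1 line left out they ranged from -0.20 to -0.0052 for Pcgf6 (nearest 0 without ICSI line 20) and from 0.076 to 0.24 for Bmi1 (lowest without control line 37, highest without control line 44). Over the 10 genes the median difference was 0.028, against -0.013 over all genes tested. Bmi1 had the lowest unadjusted p in limma (0.263, adjusted p 1.0), with 26.96 ± 1.15 FPKM in ICSI and 24.4 ± 4.32 FPKM in control lines (SD, n = 4 each). The exact two-sided permutation test over 70 assignments gave p = 0.371 for Bmi1 and p = 0.971 for Ezh2 as the lowest and the highest of the 10. The groups overlapped for 10 of 10 genes, and over all genes 0.442% had groups that did not overlap.

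The 95% intervals of the differences in limma, with the group as the only term, were examined next. For Scml2 the interval was -0.22 to 0.25 on the log2 scale, and for Eed it was -0.21 to 0.29. It was -0.37 to 0.27 for Ezh1, -0.39 to 0.39 for Ezh2 and -0.26 to 0.48 for Suz12. All 10 intervals included 0, and the widest was that of Cbx2, at -0.45 to 0.59. With the label form as covariate the interval narrowed to -0.22 to 0.36 for Cbx2 and to -0.25 to 0.15 for Ezh1, the widest was then that of Kdm6b (-0.44 to 0.33), and again all 10 included 0. Within label form 1 (2 lines against 2) the differences ranged from -0.18 for Ezh2 to 0.31 for Bmi1, and within form 2 from -0.20 for Kdm6b to 0.17 for Ezh2. Bmi1 was higher in both ICSI lines than in both control lines of form 1, and its difference in form 2 was -0.0047. The interaction of group and label form was tested in limma, and 0 of 10 genes had an adjusted or unadjusted p under 0.05, against 0.0% (adjusted) and 1.23% (unadjusted) of all genes. The lowest unadjusted interaction p was 0.0775 for Bmi1 (limma, adjusted p 1.0).

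**Figure D3:**
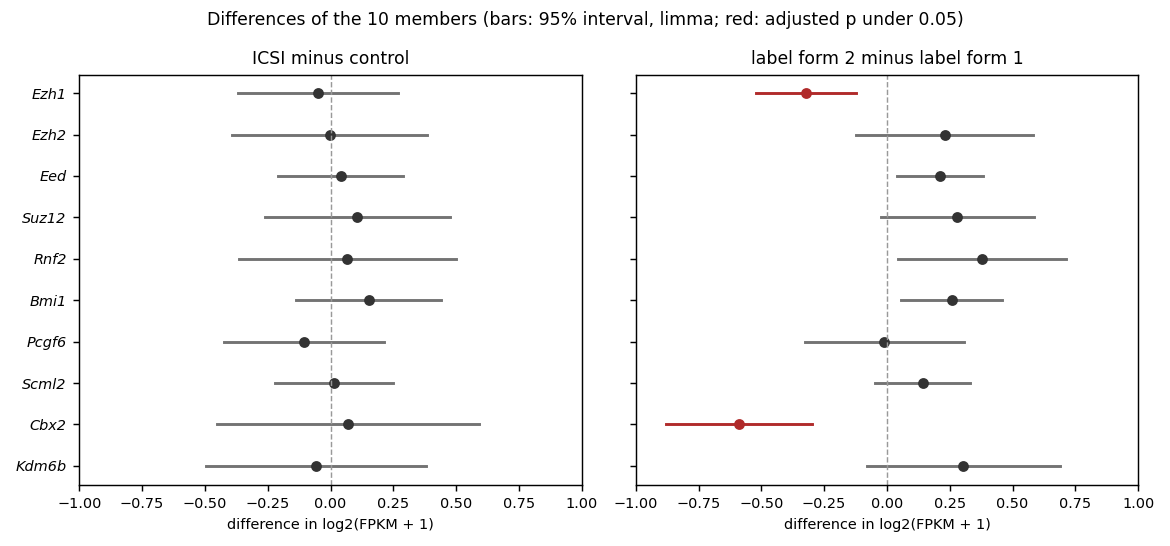
Difference in log2(FPKM + 1) of the 10 genes between ICSI and control lines (left) and between label form 2 and label form 1 (right), with 95% intervals from limma and genes with an adjusted p under 0.05 in red. On the left all 10 intervals include 0. On the right Ezh1 (-0.32) and Cbx2 (-0.59) are red and lie below 0, and the intervals of Eed, Rnf2 and Bmi1 lie above 0 without an adjusted p under 0.05.

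The lines differed more by label form than by group. Of the sum of squares of a gene over the 8 lines, the form took a median of 49.4% and the group a median of 1.68% for the 10 genes, and over all genes tested the form took 42.1% and the group 5.04% of the summed squares. A median over genes and a share of summed squares are unlike measures, so these values do not compare the 10 genes with all genes. With the group as covariate, limma called 2 of 10 genes between the forms (20%), and it called 16.0% of all genes, so the share among the Polycomb genes was near that of all genes. Leaving out any line but ICSI line 21 lowered the count over all genes from 1917 to between 210 and 1209. Both were lower in form 2, as were 5.76% of all genes, while 10.2% of all genes were higher. Cbx2 was at 41.8 ± 4.21 FPKM in form 1 and 27.6 ± 4.39 FPKM in form 2 (SD, n = 4 each), and limma put the log2 difference at -0.59 ± 0.13 (SE) with adjusted p = 0.0229. Ezh1 was at 25.5 ± 2.00 and 20.2 ± 1.23 FPKM (SD, n = 4 each), with a log2 difference of -0.32 ± 0.087 (SE; adjusted p = 0.0397 in limma). Forms did not overlap for 4 of 10 genes, Cbx2 and Ezh1 being lower and Eed and Bmi1 higher in form 2, and they did not overlap for 26.8% of all genes.

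For the other 8 genes the difference between the forms did not pass the threshold. The log2 difference (form 2 minus form 1) was 0.38 for Rnf2, 0.26 for Bmi1 and 0.21 for Eed, each with an unadjusted p under 0.05 in limma and adjusted p-values of 0.106, 0.0771 and 0.0831. It was 0.30 for Kdm6b, 0.28 for Suz12, 0.23 for Ezh2, 0.14 for Scml2 and -0.01 for Pcgf6, with limma adjusted p from 0.170 to 0.966. An unadjusted p under 0.05 was found for 5 of 10 genes, and for 35.4% of all genes. This count was 3 under TPM scaling and 2 (Ezh1 and Cbx2) under quantile normalization, where the Eed difference was 0.098 and that of Bmi1 was 0.16. Over all 12000 genes the count was 4248 in the main fit, 4025 under TPM scaling and 4278 under quantile normalization. The median of the 10 differences was 0.22, against 0.028 over all genes. The spermatogonial marker sums, the read depth and the tool versions of the labels separate the same lines, and their part in these differences was not tested. Both calls were fragile: the Ezh1 call was kept in only 1 of the 8 fits that left out a line (without ICSI line 20, limma adjusted p 0.0344; otherwise 0.0593 to 0.120), and the Cbx2 call was lost without control line 37, control line 44, ICSI line 11 or ICSI line 17 (limma adjusted p 0.0589 to 0.0771). Without control lines 29 and 44 together 0 of 10 genes were called between the forms, and 401 of all 12000.

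Other genes were read from the same tests, as a list of 45 of which 43 passed the filter (Scml4 and Asxl3 did not). Besides further PRC1 and PRC2 genes it holds genes of the enzyme complex PR-DUB and of other demethylases of the PRC2 mark. All are called other Polycomb genes here. Between ICSI and control lines 0 of 43 were called and 0 had an unadjusted p under 0.05 in limma. Their log2 differences had a median of -0.022, with 17 above and 26 below 0, and the groups overlapped for 43 of 43. Between the forms 6 of 43 were called, 4 higher and 2 lower in form 2, which at 13.95% was near the 16.0% of all genes. The median log2 difference was 0.022, and 13 of 43 genes had forms that did not overlap, against 26.8% of all genes. The count was 0 without ICSI line 11, 1 without control line 37, control line 44 or ICSI line 17, 2 without control line 29 or 45, and 10 without ICSI line 21.

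The called genes belonged to several assemblies. Kdm2b, which brings a variant PRC1 to unmethylated CpG islands, was at 10.3 to 13.4 FPKM in the lines of form 1 and 17.4 to 22.1 FPKM in those of form 2, a log2 difference of 0.68 ± 0.11 (SE, limma adjusted p = 0.0123). Pcgf5, the PCGF protein of another variant PRC1, differed by 0.41 ± 0.11 (SE, limma adjusted p = 0.0404). Both genes had forms that did not overlap. Ezhip, listed under its older symbol AU022751 and known as an inhibitor of PRC2 in the germline, was at 12.5 to 13.4 FPKM in form 1 and 15.1 to 19.4 FPKM in form 2 (log2 difference 0.34 ± 0.094 SE, limma adjusted p = 0.0425). Rbbp4, a histone chaperone that PRC2 shares with other complexes, differed by 0.33 ± 0.095 (SE, limma adjusted p = 0.0498). Over the 16 alternative fits Kdm2b was called in 15, with log2 differences of 0.56 to 0.76, whereas Pcgf5 was called in 5, Rbbp4 in 4 and Ezhip in 3.

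Cbx7 and Cbx6, which encode alternatives to CBX2 in canonical PRC1, were the 2 genes that were lower in form 2. Cbx7 was at 8.52, 13.9, 10.1 and 10.8 FPKM in lines 29, 37, 11 and 17 of form 1 and at 5.06, 7.46, 3.63 and 7.98 FPKM in lines 44, 45, 20 and 21 of form 2 (log2 difference -0.79 ± 0.23 SE, limma adjusted p = 0.0495). Cbx6 averaged 3.70 ± 0.18 FPKM in form 1 and 1.97 ± 0.47 FPKM in form 2 (SD, n = 4), and limma put the log2 difference at -0.67 ± 0.13 (SE) with adjusted p = 0.0183. Cbx6 was called in 10 of 15 alternative fits and Cbx7 in 4 of 16, with the difference below 0 in each. ICSI line 20 had the lowest value of the 8 lines for Cbx2, Cbx6 and Cbx7, but also for Bap1, and the highest for Rbbp4 and Rbbp7. Cbx8, which encodes a further CBX protein, had a difference of -0.06 (limma adjusted p = 0.833). Of the PRC2 accessory genes 2 of 11 were called between the forms and of the PRC1 genes 4 of 27, near the 16.0% of all genes. Of PR-DUB, which removes ubiquitin from H2A, 0 of 3 were called. Of the other demethylases of the PRC2 mark 0 of 2 were called, and both lists are too short to compare with that share. By mean level the highest of the list were Rbbp7 at 110 FPKM, Rbbp4 at 56.9 FPKM and Bap1 at 51.6 FPKM, and the lowest of those tested were Phc3 at 1.30, Lcorl at 1.36 and Phf19 at 1.69 FPKM.

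**Figure D4:**
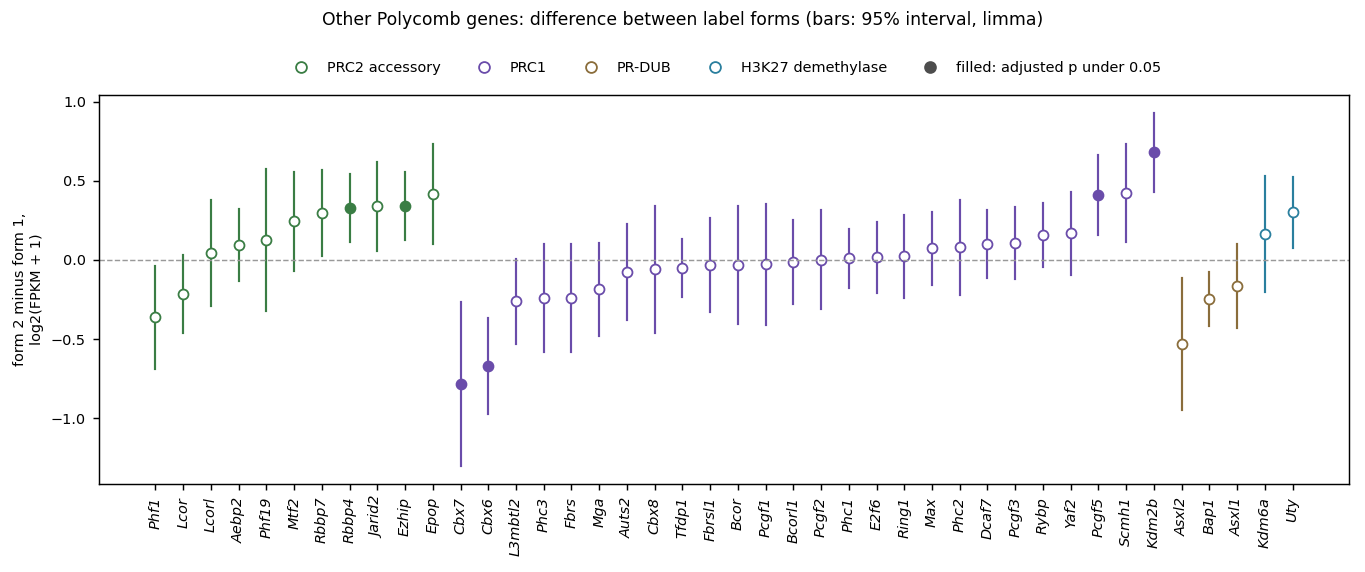
Difference between label form 2 and label form 1 in log2(FPKM + 1) for other Polycomb genes tested, ordered by size within each complex, with 95% intervals from limma and filled points for an adjusted p under 0.05. Kdm2b (0.68), Pcgf5, Ezhip and Rbbp4 are filled above 0, and Cbx7 (-0.79) and Cbx6 (-0.67) are filled below 0.

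Genes known as Polycomb targets in other cells were measured as 2 lists. Of 28 developmental regulators and cell cycle inhibitors, 20 had a mean below 1 FPKM and 8 were tested. The highest were Cdkn2a at 50.2 FPKM and Cdkn2b at 10.2 FPKM, a pair of cell cycle inhibitors at 1 locus, and Lhx1 at 11.4 FPKM, a transcription factor gene that is also a spermatogonial marker here. Of the 8 tested, 0 were called between ICSI and control lines. Between the forms, where 16.0% of all genes were called, Lhx1 (log2 difference 1.66, limma adjusted p = 0.00819) and Foxa2 (1.40, limma adjusted p = 0.0237) were higher in form 2, and Wt1, also a Sertoli cell marker, was lower (-0.82, limma adjusted p = 0.0150). Lhx1 was called in 16 of 16 alternative fits, Wt1 in 12 of 15 and Foxa2 in 9 of 16. Msx1 averaged 0.932 FPKM in form 1 and 1.96 FPKM in form 2 and passed the filter only through form 2, so its test is not given. For the same reason no count or median over the genes that passed is given for the forms.

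The other list held 12 germline genes of the kind that PRC1.6 silences in embryonic stem cells, and 12 of 12 were tested. The highest were the RNA-binding protein gene Dazl at 337 FPKM, Taf7l at 236 FPKM and the piRNA factor gene Mael at 227 FPKM. No gene of the list was called between the groups, and 4 of 12 were called between the forms, all higher in form 2, as were 10.2% of all genes. Of these 4, the largest differences were those of Stk31 (0.66, limma adjusted p = 0.0144), the synaptonemal complex gene Sycp3 (0.64, limma adjusted p = 0.0173) and Dazl (0.52, limma adjusted p = 0.0173). These 3 were called in 14, 12 and 9 of 16 alternative fits. The log2 differences of all 12 ranged from -1.07, in a gene that was not called, to 0.66. Of these, 9 were above and 3 below 0, with a median of 0.22. Dazl and Ddx4 also stand in the spermatogonial marker list, of which 9 of 15 were called higher in form 2, against the same 10.2% of all genes.

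How the 10 genes varied together was described after the mean of each label form had been subtracted. Eed and Suz12 followed each other most closely (Pearson's r = 0.963 of log2 values, n = 8 lines), and Suz12 also followed Scml2 (r = 0.878). Without the subtraction these values were 0.895 and 0.925, and in both pairs control line 29 was the lowest of the 8 lines. Scml2 and Cbx2 had r = 0.841 within the forms and -0.327 without the subtraction. Rnf2 and Cbx2 ran against each other (r = -0.888, and -0.920 without the subtraction), with ICSI line 20 the highest line for Rnf2 and the lowest for Cbx2. So did Ezh2 and Kdm6b (r = -0.874, and -0.355 without the subtraction) and Ezh1 and Bmi1 (r = -0.770 and -0.900). The catalytic genes Ezh1 and Ezh2 had r = 0.391 within the forms and -0.287 without the subtraction, so the sign of this relation turned with the form means. These values describe 8 libraries that share depth, label form and cell makeup, and the pairs were picked from 45 after their values were seen. The spread between lines of the same group and form was small for Bmi1 (percentile 0.742 of all genes tested) and Eed (percentile 5.43), and largest among the 10 for Kdm6b (percentile 81.7).

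The genes most like 3 of the members were sought by the same measure over 11999 other genes. For Ezh2 they were Cep78 (r = 0.987), C330018D20Rik and Rtl5 (r = 0.974 for each, n = 8 lines). For Scml2 they were Ssh2, D330050I16Rik and Senp1 (r = 0.993, 0.987 and 0.982), although without subtraction of the form means their r with Scml2 was 0.122, 0.192 and -0.113. For Cbx2 they were Btbd19, Slc15a4 and Traf3 (r = 0.995, 0.994 and 0.991), and their r remained 0.921, 0.737 and 0.942 without the subtraction. The best of so many genes is close over 8 lines whatever the gene, so these names only describe the pattern.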

How the data were processed

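RNA-seq was performed on 4 control and 4 ICSI GS cell lines. The members and lists were chosen with earlier results of these data known. The authors trimmed single reads with cutadapt, mapped them to mm10 with STAR, counted them with htseq-count on GENCODE M25 and deposited FPKM values per gene. The log2 fold changes and p-values that the authors deposited beside them are from their own comparison with DESeq2 and were not used. The labels and the methods name different library kits, so strandedness is uncertain. Columns of other samples numbered 0.

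FPKM values below 300 reads were whole multiples of 1 read per gene length (tolerance 0.02 reads) in 98.2% to 98.5% of cases, so reads were recovered for 30763 genes, 212 of them after a search for the length. Per kilobase, a single read corresponded to 0.0227 to 0.0401 FPKM. The members had 1218 to 25971 reads per line. Positions and lengths were taken from GENCODE M21 on GRCm38, the assembly of mm10.

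Tests used limma 3.58.1 in R 4.3.3 (lmFit, eBayes with trend) on log2(FPKM + 1) of the 12000 genes whose mean reached 1 FPKM, two-sided, with Benjamini-Hochberg adjustment over all of them and a threshold of 0.05. Differences are on this scale, which understates the change of low genes. Group was the only term for ICSI against control, group was the covariate for the label forms, and their interaction was a separate term. The limma fits were tested on the same FPKM values with fitted group and form effects removed and known changes added to some genes. Exact permutation tests and summaries used Python 3.11.15 with scipy 1.17.1. All members were named. Of the other Polycomb genes, those past the threshold (up to 8 in each direction) and the 3 highest and 3 lowest by level were named, and of the target lists the 3 highest and those past the threshold (up to 3 in each direction). Ring1, Cbx8 and Ddx4 were added after their values were seen. One gene of the lists is counted but not reported by name or plotted. Alternatives were another pseudocount (0.1), no filter or 5 FPKM, TPM scaling, quantile normalization, limma-voom on recovered reads, the other choice of covariate and leaving out each line. The fit without control lines 29 and 44, and the Ezh1 to Ezh2 ratio per longest transcript, were added after seeing the data.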

Additional observations from a re-analysis of the deposited data

Results flagged for a closer look

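Of 20 groups of 4 values (10 genes in 2 groups), 1 held a line far from the others. Rnf2, which encodes the ubiquitin ligase RING1B, was at 23.6 FPKM in ICSI line 20 and at 13.3 to 14.3 FPKM in the other 3 ICSI lines, so that 0.898 of the range of the group lay between this line and its nearest neighbour, above Dixon's 95% critical value for 4 samples. Chance marks about 1 in 20 such groups. The ICSI difference of Rnf2 was 0.067 on the log2 scale with all lines, and -0.11 without ICSI line 20. The same line had the lowest Cbx2, Cbx6, Cbx7 and Pcgf6 values. It was also the lowest for Cbx8 (6.70 FPKM) and Bap1 (44.7 FPKM), and the highest for Rbbp4 (71.9 FPKM) and Rbbp7 (140 FPKM). Of all lines it had the fewest genes detected (19783) and the largest FPKM sum (272565). What set this line apart was not tested.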

How the results depend on the processing

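No member and none of the other Polycomb genes was called between ICSI and control lines under any setting run. Without a filter 1 gene of the table was called by ICSI, and between the label forms the counts were 1255 genes, 1 member and 3 other Polycomb genes, with the Ezh1 adjusted p at 0.0549. TPM scaling gave 1599 genes and 3 other Polycomb genes by form, an Ezh2 ICSI difference of 0.0149 and an Rnf2 interaction of -0.00612. Quantile normalization gave an Ezh2 ICSI difference of 0.00622, and of the genes it called between the forms 1019 were higher and 972 lower, against 1226 and 691. Without the group covariate 10 other Polycomb genes were called by form, and 2507 genes in all. Without control lines 29 and 44 the counts by form were 401 genes, 0 members and 1 other Polycomb gene, with ICSI differences of -0.0239 for Eed, -0.0942 for Suz12, -0.0448 for Scml2 and -0.0198 for Cbx2 and a form difference of 0.0588 for Pcgf6. For these shifts the cause was not tested.

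With each line left out in turn, which leaves fewer lines, the counts by form were 210 to 2691 genes, 0 to 2 members and 0 to 10 other Polycomb genes. Lowest counts were found without ICSI line 11 and highest counts of genes without ICSI line 21, where Rnf2 was called (limma adjusted p 0.0251). The ICSI difference in the log2 Ezh2 to Ezh1 ratio was -0.105 to 0.228. The ICSI differences were -0.136 to 0.0396 for Ezh1, -0.0952 to 0.108 for Ezh2, -0.0241 to 0.0892 for Eed, -0.0492 to 0.210 for Suz12, -0.113 to 0.149 for Rnf2, -0.0537 to 0.0514 for Scml2, 0.0760 to 0.241 for Bmi1, -0.199 to -0.00518 for Pcgf6, -0.0417 to 0.268 for Cbx2 and -0.240 to 0.0912 for Kdm6b. The form difference was -0.123 to 0.109 for Pcgf6. Neighbouring levels that differed numbered 3 without ICSI line 20 and 0 without any other line. With 7 lines fewer sign flips are possible, so the smallest possible p is larger. All other alternatives kept the direction and the side of the threshold for the members, apart from the Ezh1 and Cbx2 calls by form already described. No paired analysis was possible because the groups share no line number.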
